A study of Homo sapiens with 6 samples.

Results

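Genes of nucleic acid sensing and the interferon response were examined in the human liver cancer cell line HepG2. The group holds 43 genes, listed by their known function and found by symbol: receptors and helicases that sense RNA or DNA, their adaptors and kinase, factors of the IRF and STAT families, the receptor subunits for type I interferon, and interferon-stimulated genes. All 43 were found among the 20422 genes of the count table. The study sequenced RNA from 6 libraries of HepG2, 3 of control cells (NC) and 3 of cells given a Flag-tagged open reading frame (ORF-Flag), to ask what its overexpression changes in the transcriptome. The sample descriptions give the NC cells as carrying vector plasmids and the ORF-Flag cells as carrying the tagged overexpression plasmid, both by transfection, whereas the methods of the study describe HepG2 lines made stable with lentiviral vectors. Total counts were 20081203, 24907524 and 30088457 in NC 1, 2 and 3, and 26866148, 17494668 and 27015836 in ORF-Flag 1, 2 and 3. Neither source says whether the 3 libraries of a group came from separate cultures, so the p-values measure only the spread between these libraries, which may be technical. As both groups were bulk samples of 1 line, fewer cells with a transcript and less RNA per cell cannot be told apart.

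Cells detect foreign RNA through cytosolic helicases such as RIGI and IFIH1, which signal through the mitochondrial adaptor MAVS, and foreign DNA through the enzyme CGAS, which signals through STING1. Both routes activate the kinase TBK1 and the factor IRF3, which switch on type I and type III interferons. Secreted type I interferon binds IFNAR1 and IFNAR2, and a complex that holds STAT2 and IRF9 then enters the nucleus and binds a DNA element, the interferon-stimulated response element (ISRE), at the promoters of antiviral genes. Hepatocytes respond to interferon, and the DNA-sensing branch is known to be weak in them.

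The element is shown here because it is what many of the effector genes share in sequence. Promoters (250 bases before to 50 after a transcription start) were taken from RefSeq on GRCh38.p14, where 29 of the 43 genes matched, with 38 promoters. The ISRE core (GAAA, any 2 bases, GAAA), searched on both strands, was present in 21 of these 38 promoters (55.3%), from 17 genes, and in 1255 of all 35116 promoters (3.57%). The gamma-activated site TTCNNNGAA, the element of the interferon gamma response, was present in 10 of the 38 (26.3%) and in 2689 of all promoters (7.66%). The list was assembled from genes known for interferon response, and a match is a description of letters only. The windows below are written in the direction of the gene, with 1 ISRE core, or its reverse complement, in capitals. The windows of BST2 and ISG15 hold a second core, partly in lower case, that shares GAAA with the marked one. Those of IFITM1 and BST2 also hold a gamma-activated match that overlaps the marked core.
IFITM3, chr11:320876-320905, minus strand: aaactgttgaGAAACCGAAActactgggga
IFITM1, chr11:314024-314053, plus strand: acacttctgaGAAACTGAAAcgacagggga
BST2, chr19:17405741-17405770, minus strand: tcctttctggGAAACTGAAActgaaaacct
ISG15, chr1:1013380-1013409, plus strand: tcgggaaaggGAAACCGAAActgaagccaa
IFIT1, chr10:89392510-89392539, plus strand: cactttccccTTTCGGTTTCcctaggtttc
Among the genes whose levels differed below, IFITM3 held the core and STAT2 was in the promoter table without a match to either motif. IFITM2 and STING1 had no entry in the promoter table, nor had CGAS, DHX58, IFIT2, IFNAR2, IRF2, IRF3, IRF7, MX2, OAS2, OASL, TRIM22 and USP18.

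HepG2 expressed most of the pathway, but unevenly. Of the 43 genes, 37 had enough counts to be tested, 6 were counted at low numbers and not tested, and 0 were without a count in every library. Levels between genes were compared as FPKM, counts scaled for library depth and exon length, averaged over the 6 libraries. IFITM3 had the highest level at 172.5 FPKM, followed by BST2 at 118.5, IFITM2 at 36.8, ISG15 at 25.2 and IFI6 at 18.2 FPKM. At the other end stood sensors and a few classic interferon-induced genes, with RIGI at 0.0569 and CGAS at 0.00447 FPKM. Lengths from the longest transcript in place of all exons left the same leading gene in 10 of the 11 functional groups. With them IFI35, not IFI6, came after ISG15. They left some levels unchanged, such as IFIT1 at 1.97 FPKM, and raised others, such as IFITM3 to 287.7, IFITM2 to 63.6 and MX2 from 3.98 to 12.8 FPKM. Levels in FPKM therefore depend on the length used.

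**Figure D1:**
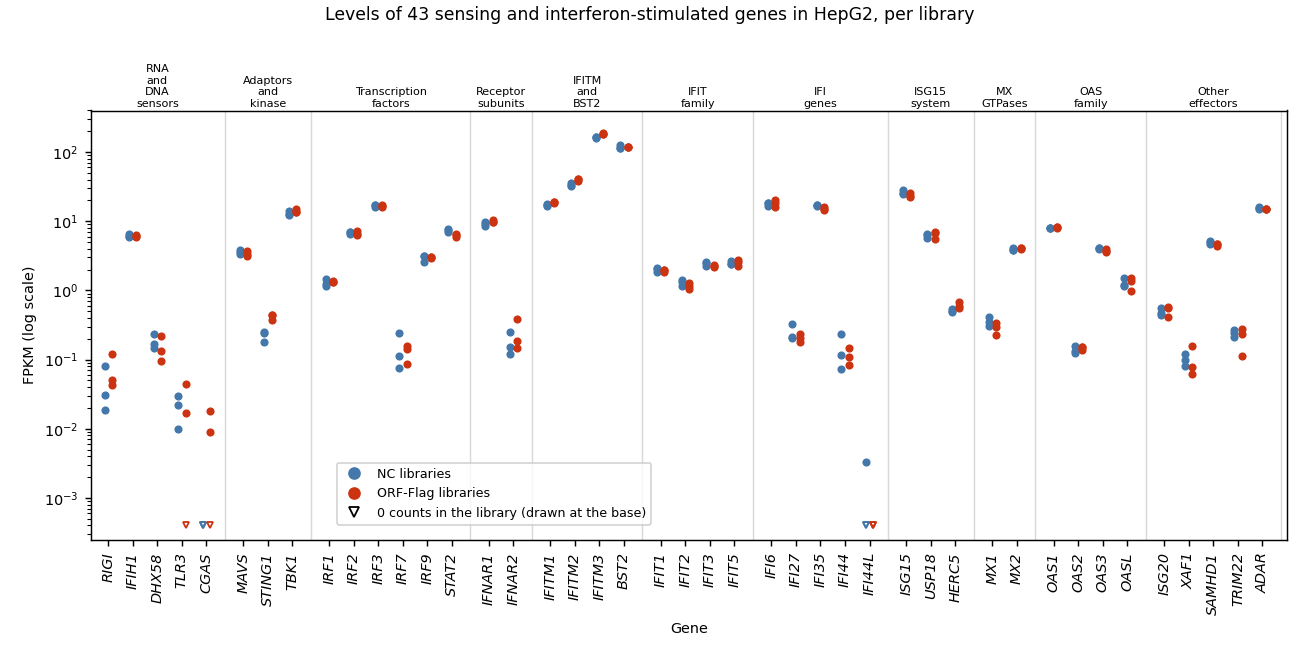
FPKM (log axis) of each of the 43 genes in each of the 6 libraries, grouped by function, with blue points for NC, red points for ORF-Flag and open triangles at the base for libraries with 0 counts. IFITM3 and BST2 lead at 172.5 and 118.5 FPKM on average, and TLR3, CGAS and IFI44L have libraries at 0 counts.

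Differences between ORF-Flag and NC were tested with edgeR's quasi-likelihood test over 12386 genes, with Benjamini-Hochberg adjustment over all of them, and a gene was taken as changed at an adjusted p below 0.05. STING1, IFITM2 and IFITM3 rose in ORF-Flag and STAT2 fell, which makes 4 of 37 tested members (10.8%), against 4.45% of all tested genes (551 of 12386). By direction, 2.47% of all tested genes were higher and 1.98% lower. The members' share rests on 4 genes, of which IFITM2 and IFITM3 are neighbouring copies of 1 family, and it was not tested as a set. Both counts depend on single libraries. Without ORF-Flag 3, 0 members and 199 of all tested genes passed, and without NC 2 only IFITM3 among the members and 267 of all tested genes. Without NC 3, 1058 genes passed, with IFITM2, IFITM3 and STAT2 among them. At an unadjusted p below 0.05, 7 of the 37 (18.9%) were counted, 3 higher and 4 lower, close to the 18.5% of all tested genes (9.29% higher and 9.22% lower). With a fold above 1.2 and an unadjusted p below 0.05, only STING1 was counted (1 of 37), against 4.54% of all tested genes. The libraries of the groups did not overlap for 5 members in the higher direction (STING1, IFITM1, IFITM2, IFITM3 and HERC5, 13.5%, against 11.5% of all tested genes) and for 4 in the lower direction (STAT2, IFI35, OAS3 and ADAR, 10.8%, against 10.9%), both near the background.

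Over the list as a whole the differences were centred near 0. The log2 fold change of ORF-Flag over NC was positive in 19 and negative in 18 of the tested members, with a median of 0.01 beside -0.001 over all tested genes. It ranged from -0.33 for the GTPase MX1, which did not pass the test, to 0.93 for STING1. In 33 of the 37 (89.2%) the estimate lay within a 1.2-fold difference either way, beside 90.0% of all tested genes. Of the 4 outside it, MX1 (0.797-fold), IFI27 (0.801-fold) and IFNAR2 (1.24-fold) did not pass the test, and genes with few counts, such as DHX58 and XAF1, had intervals too wide to place them near their control level. The summed level of the 43 genes was 1220, 1247 and 1247 CPM (counts scaled for library depth) in NC and 1252, 1264 and 1264 CPM in ORF-Flag, the latter higher in all 3 libraries. The 27 effector genes summed to 883.3, 890.8 and 895.2 CPM in NC and 902.2, 909.6 and 921.3 CPM in ORF-Flag, with no overlap. Without IFITM3 they summed to 670.4, 668.7 and 672.0 CPM in NC and 659.7, 666.8 and 669.9 CPM in ORF-Flag, where the groups overlap.

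**Figure D2:**
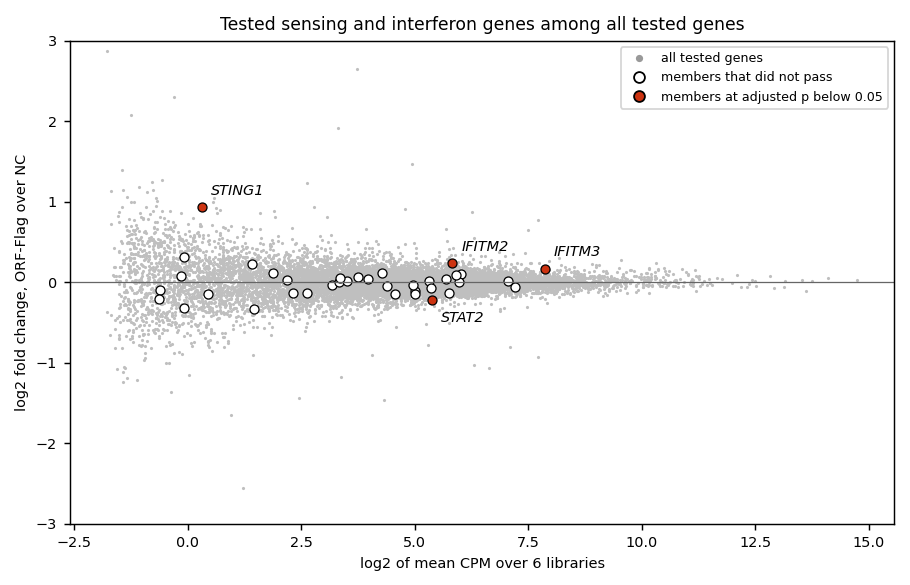
Log2 fold change of ORF-Flag over NC against the log2 of mean CPM over the 6 libraries, with all 12386 tested genes in grey and the 37 tested members as circles. Red circles are the 4 members with an adjusted p below 0.05, among which STING1 (0.93) lies at low abundance, where grey points spread widely, and IFITM2, IFITM3 and STAT2 lie at higher abundance with small fold changes.

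Among the RNA and DNA sensors, IFIH1, a helicase for long double-stranded RNA, was the one well expressed at 6.14 FPKM. Its level was 30.5, 33.1 and 31.8 CPM in NC and 32.1, 30.0 and 30.9 CPM in ORF-Flag. The groups overlapped, with a log2 fold change of -0.03 (SE 0.06, edgeR adjusted p = 0.82). DHX58, a regulator of these helicases, had between 9 and 23 counts per library and a wide 95% interval of its log2 fold change, from -0.97 to 0.54. The other 3 sensors were not tested: RIGI had 2 to 9 counts per library, the endosomal receptor TLR3 0 to 8, and CGAS 0 to 2. CGAS had 0 counts in each NC library and 2, 0 and 1 in ORF-Flag 1, 2 and 3. With 3 counts worth between 0.0997 and 0.171 CPM, a difference in CGAS was not detectable at this depth, and such limits cover counting error only.

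STING1, the adaptor downstream of CGAS, had the largest fold change among the tested members, from few counts. It had 19, 24 and 21 counts in NC and 46, 25 and 46 in ORF-Flag, or 0.939, 0.961 and 0.701 CPM against 1.71, 1.44 and 1.70 CPM. All ORF-Flag libraries lay above all NC libraries once scaled for depth, although ORF-Flag 2, the shallowest library, had nearly the same raw count as NC 2. Means with their SD over 3 libraries were 0.867 ± 0.144 and 1.62 ± 0.157 CPM, and the log2 fold change was 0.93 (SE 0.25, 95% interval 0.42 to 1.44, edgeR adjusted p = 0.031). The level was low in both groups, at 0.323 FPKM on average. DESeq2 with all libraries gave STING1 no adjusted p, so the call is absent there without having been set against the threshold. By edgeR it held in 1 of 6 fits with 1 library left out. The edgeR adjusted p was 0.067 without NC 2, 0.094 without NC 3, 0.11 without ORF-Flag 1, 0.058 without ORF-Flag 2 and 0.14 without ORF-Flag 3, and remained below the threshold, at 0.049, without NC 1. STING1 (ENSG00000184584.14) lies on the minus strand of chromosome 5 (GRCh38, chr5:139475534-139482935).

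The kinase and the other adaptor did not pass the test. TBK1, the kinase that both adaptors engage, had the highest level of this group at 13.6 FPKM. It measured 59.4, 61.2 and 66.1 CPM in NC and 65.6, 70.8 and 64.3 CPM in ORF-Flag. The groups overlapped, and the log2 fold change was 0.10 (SE 0.05, edgeR adjusted p = 0.29). MAVS, the adaptor of the RNA branch, was present at 3.52 FPKM with overlapping groups and a log2 fold change of -0.07 (SE 0.06).

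STAT2, the subunit of the interferon-activated complex that carries its activation domain, was the member that fell. It measured 42.8, 46.5 and 45.1 CPM in NC and 39.2, 40.1 and 35.9 CPM in ORF-Flag. Every ORF-Flag library lay below every NC library. Means with their SD over 3 libraries were 44.8 ± 1.88 and 38.4 ± 2.22 CPM, and the log2 fold change was -0.23 (SE 0.05, 95% interval -0.34 to -0.11, edgeR adjusted p = 0.017). The call was lost without NC 2 (edgeR adjusted p = 0.11) and without ORF-Flag 3 (0.15). STAT2 (ENSG00000170581.15) lies on the minus strand of chromosome 12 (GRCh38, chr12:56341597-56360155).

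IRF9, the partner that gives this complex its DNA specificity, did not pass the test. It had a level of 2.99 FPKM, overlapping groups and a log2 fold change of 0.02 (SE 0.09). All of the IRF9 sequence, cut into 31-base words, recurs in an overlapping readthrough annotation (100% of words), so its counts depend on how the authors' counting treated such reads. Whether the difference of STAT2 departs from that of IRF9 was not tested.

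IRF3, which both sensing routes activate by phosphorylation, had the highest level among the transcription factors at 16.6 FPKM. Its libraries measured 64.5, 64.6 and 60.7 CPM in NC and 65.7, 62.7 and 60.6 CPM in ORF-Flag. They overlapped fully, with a log2 fold change of -0.00 (SE 0.05, 95% interval -0.10 to 0.09, edgeR adjusted p = 0.98). Of the 31-base words of IRF3, 29.2% recur in other genes, mostly BCL2L12, which also lies opposite 19.3% of its exon length, so its level and rank are uncertain. IRF1 and IRF2, an activator and a repressor at related elements, had log2 fold changes of 0.05 (SE 0.10) and -0.04 (SE 0.07), and 35.3% of the words of IRF1 recur in other genes, mostly C5orf56. IRF7, which amplifies interferon production and is itself interferon-induced, had 4 to 19 counts per library and was not tested.

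Of the receptor subunits, IFNAR1 was expressed at 9.54 FPKM and IFNAR2 at 0.207 FPKM. IFNAR1 measured 54.4, 57.7 and 61.9 CPM in NC and 60.5, 65.4 and 60.9 CPM in ORF-Flag. The groups overlapped, with a log2 fold change of 0.09 (SE 0.05, edgeR adjusted p = 0.33). IFNAR2 had 14 to 35 counts per library and a 95% interval from -0.42 to 1.03. As 86.4% of its 31-base words recur in other annotated genes, among them a readthrough with its neighbour, the low level of IFNAR2 may be understated by the counting and is uncertain.

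**Figure D3:**
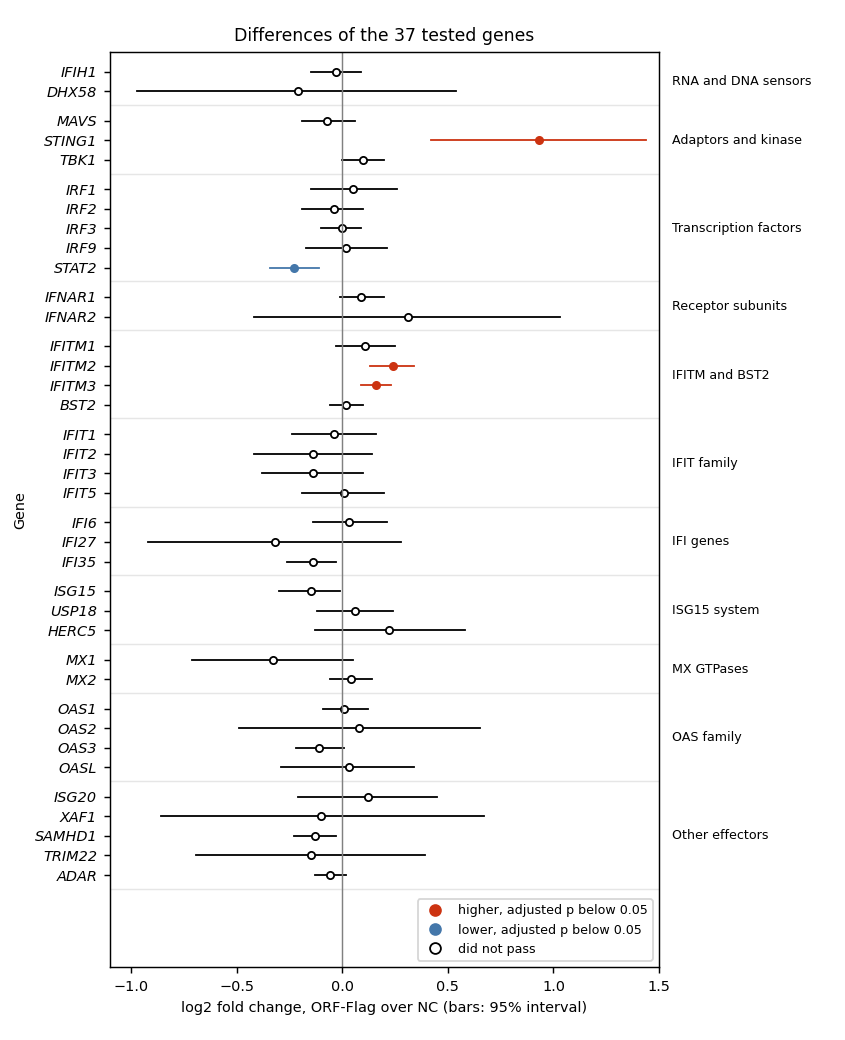
Log2 fold change of ORF-Flag over NC (points) with its 95% interval (bars) for the 37 tested members, grouped by function, with filled red and blue points for members higher or lower at an adjusted p below 0.05. STING1 (0.93), IFITM2 (0.24) and IFITM3 (0.16) lie to the right of 0 and STAT2 (-0.23) to the left, and genes with few counts have the widest bars.

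Among the 27 effector genes, 25 were tested, 2 rose and 0 fell by edgeR (2 of 25, against 4.45% of all tested genes). At an unadjusted p below 0.05, 3 effectors were lower (IFI35, ISG15 and SAMHD1, 3 of 25, against 9.22% of all tested genes), and DESeq2, limma-trend and limma-voom also called 0 lower at an adjusted p below 0.05. The median log2 fold change of the effectors was 0.01, with a range of -0.33 to 0.24.

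The rises were in the IFITM family, small membrane proteins that block the fusion of enveloped viruses with cell membranes. IFITM3 measured 212.9, 222.1 and 223.2 CPM in NC and 242.5, 242.8 and 251.3 CPM in ORF-Flag. All ORF-Flag libraries lay above all NC libraries, by more than the spread within either group. Means with their SD over 3 libraries were 219.4 ± 5.68 and 245.6 ± 5.01 CPM, and the log2 fold change was 0.16 (SE 0.03, 95% interval 0.09 to 0.23, edgeR adjusted p = 0.0063), or 1.12-fold.

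IFITM2 measured 49.2, 50.9 and 55.7 CPM in NC and 58.2, 63.9 and 62.4 CPM in ORF-Flag. Its groups did not overlap either, with NC 3 and ORF-Flag 1 closest to each other. Means with their SD over 3 libraries were 51.9 ± 3.36 and 61.5 ± 2.94 CPM, and the log2 fold change was 0.24 (SE 0.05, 95% interval 0.13 to 0.34, edgeR adjusted p = 0.0087), or 1.18-fold. The IFITM2 call was lost without NC 2 (edgeR adjusted p = 0.057), without ORF-Flag 2 (0.057) and without ORF-Flag 3 (0.062), and the IFITM3 call without ORF-Flag 3 (0.071).

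IFITM1, the family member found mostly at the cell surface, measured 18.3, 18.2 and 19.4 CPM in NC and 19.6, 20.6 and 20.3 CPM in ORF-Flag. These groups did not overlap, NC 3 and ORF-Flag 1 being almost level, and the log2 fold change of 0.11 (SE 0.07, edgeR adjusted p = 0.41) did not pass the test. Whether the 3 family members differ from each other in their response was not tested.

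The IFITM genes lie together on chromosome 11 (GRCh38): IFITM2 (ENSG00000185201.18) at chr11:307631-315272 and IFITM1 at chr11:313506-315272 on the plus strand, and IFITM3 (ENSG00000142089.17) at chr11:319669-327537 on the minus strand. Their transcripts are near-identical in places. Of their 31-base words, 45.9% of those of IFITM1, 24.6% of those of IFITM2 and 43.3% of those of IFITM3 recur in another gene, and 21.3% of the exon length of IFITM3 lies opposite another annotated gene. The split of reads among these genes is therefore uncertain. Their sum does not depend on how counted reads were split among the 3. It does depend on whether shared or overlapping reads were counted, which the sources do not state. The sum was 280.4, 291.1 and 298.3 CPM in NC and 320.3, 327.2 and 334.1 CPM in ORF-Flag. Again no libraries overlapped, and the sum had a log2 fold change of 0.17 (SE 0.03, edgeR adjusted p = 0.0031). Summing the family was added after the data had been seen. As most of the sum comes from IFITM3, its p-value repeats the calls of IFITM2 and IFITM3 and adds no separate evidence for them. The sum was not fitted with a library left out.

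BST2, which tethers budding virions to the cell surface, stood in the same functional group with an ISRE core in its promoter and a level second to IFITM3. It measured 140.1, 128.7 and 126.8 CPM in NC and 132.9, 132.5 and 134.3 CPM in ORF-Flag. The ORF-Flag libraries lay inside the NC range, with a log2 fold change of 0.02 (SE 0.04, 95% interval -0.06 to 0.10).

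**Figure D4:**
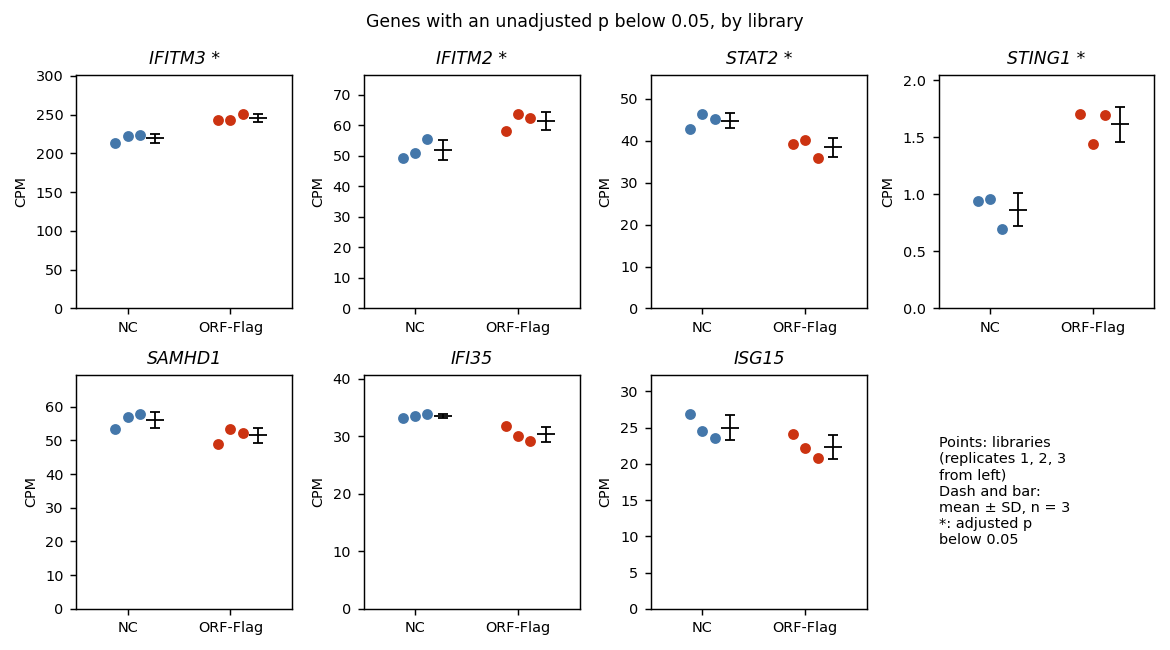
CPM by library for the 7 members with an unadjusted p below 0.05, with 1 point per library (replicates 1, 2 and 3 from left), a dash and bar for the mean ± SD (n = 3), and an asterisk where the adjusted p was below 0.05. The groups are separate for IFITM3, IFITM2, STAT2, STING1 and IFI35, and overlap for SAMHD1 and ISG15.

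The IFIT proteins bind viral RNA, and their genes are among the strongest targets of the ISRE. The RNA of all 4 genes was at a low level, led by IFIT5 at 2.50 FPKM and with IFIT1 at 1.97 FPKM. IFIT5 measured 9.59, 9.65 and 10.7 CPM in NC and 9.12, 10.9 and 10.3 CPM in ORF-Flag. The groups overlapped for all 4 genes, and the log2 fold changes lay between -0.14 and 0.01 (IFIT5 0.01, SE 0.10; edgeR adjusted p = 0.98).

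Of the 5 IFI genes, IFI6, a mitochondrial and endoplasmic reticulum protein, had the highest level at 18.2 FPKM, although with lengths from the longest transcript IFI35 led. It measured 16.1, 15.9 and 14.5 CPM in NC and 16.1, 17.6 and 14.0 CPM in ORF-Flag. The NC range lay inside the ORF-Flag range, with a log2 fold change of 0.03 (SE 0.08, edgeR adjusted p = 0.89). IFI35 measured 33.1, 33.6 and 33.9 CPM in NC and 31.8, 30.0 and 29.2 CPM in ORF-Flag. Its groups did not overlap, but the log2 fold change of -0.14 (SE 0.06, edgeR adjusted p = 0.16) did not pass the adjusted threshold. IFI27 was near the limit of testing at 17 to 41 counts per library, and IFI44 and IFI44L, usual markers of an interferon response in blood and tissue, had 3 to 12 and 0 to 1 counts and were not tested.

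ISG15 is a ubiquitin-like protein that is attached to other proteins and also secreted. It measured 26.9, 24.5 and 23.5 CPM in NC and 24.1, 22.2 and 20.8 CPM in ORF-Flag. ORF-Flag 1 lay above NC 3, so the groups overlapped, and the log2 fold change was -0.15 (SE 0.07, edgeR adjusted p = 0.25). The enzymes that attach and remove it are given as a chain, singled out after their values were seen. The activating enzyme UBA7 fell, with a log2 fold change of -0.39 (SE 0.11, edgeR adjusted p = 0.040). That call was lost by DESeq2 (adjusted p = 0.070), by limma-voom (0.060) and in 4 of 6 edgeR fits with 1 library left out, the fold change being -0.25 without NC 2. The conjugating enzyme UBE2L6 had a log2 fold change of 0.18 (SE 0.08, edgeR adjusted p = 0.23) and the ligase HERC5 of 0.22 (SE 0.17, edgeR adjusted p = 0.54), both with separate groups and neither past the threshold. For USP18, the protease that removes ISG15 and restrains IFNAR2, it was 0.06 (SE 0.09) with overlapping groups, and 30.8% of its 31-base words recur in other genes, mostly USP41.

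The MX proteins are dynamin-like GTPases that trap viral nucleocapsids. MX2 was expressed at 3.98 FPKM and MX1 at 0.322 FPKM. MX2 measured 50.6, 53.0 and 50.1 CPM in NC and 52.9, 51.2 and 53.5 CPM in ORF-Flag. The groups overlapped, with a log2 fold change of 0.04 (SE 0.05, edgeR adjusted p = 0.73). MX1 had 51 to 105 counts per library, overlapping groups and a log2 fold change of -0.33 (SE 0.18, 95% interval -0.71 to 0.05).

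The oligoadenylate synthetases bind double-stranded RNA and make a small messenger molecule from ATP. OAS1 led this family at 8.05 FPKM, with OAS3 at 3.89, OASL, which lacks the synthetase activity, at 1.29 and OAS2 at 0.144 FPKM. OAS1 measured 39.6, 39.4 and 40.0 CPM in NC and 38.9, 40.3 and 41.0 CPM in ORF-Flag. The NC range lay inside the ORF-Flag range, and the log2 fold change was 0.01 (SE 0.05, 95% interval -0.09 to 0.12, edgeR adjusted p = 0.92). OAS3 had separate groups, with NC 3 at 32.6 and ORF-Flag 3 at 32.5 CPM, and a log2 fold change of -0.11 (SE 0.06, edgeR adjusted p = 0.35).

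Of the remaining effectors, ADAR, which edits adenosine in double-stranded RNA and keeps IFIH1 from sensing the cell's own transcripts, was the most abundant at 15.4 FPKM. It measured 147.7, 152.9 and 154.1 CPM in NC and 145.2, 146.3 and 146.3 CPM in ORF-Flag. The groups did not overlap, and the log2 fold change of -0.06 (SE 0.03, edgeR adjusted p = 0.42) did not pass the test. SAMHD1, which depletes deoxynucleotides, measured 53.3, 57.0 and 57.9 CPM in NC and 49.0, 53.4 and 52.1 CPM in ORF-Flag. ORF-Flag 2 lay above NC 1, so the groups overlapped, and the log2 fold change was -0.13 (SE 0.05, edgeR adjusted p = 0.15). ISG20, XAF1 and TRIM22 had 11 to 115 counts per library and standard errors of their log2 fold changes from 0.16 to 0.37, and 69.8% of the 31-base words of XAF1 recur in another gene.

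The other genes of the pathway were examined as 4 further lists of 116 genes, of which 72 were tested, 1 rose and 3 fell (5.56%, against 4.45% of all tested genes). At an unadjusted p below 0.05, 7 were higher (9.72%, against 9.29%) and 12 lower (16.7%, against 9.22%), a difference from all genes that was not tested. The ligands were nearly silent. Of 22 interferon genes, 21 had 0 counts in every library, IFNB1, IFNG and the listed IFNA genes included, which allows up to 0.0997 to 0.171 CPM depending on the library. The type III gene IFNL1 had 3, 0 and 2 counts in NC and 3, 1 and 1 in ORF-Flag, too few for a comparison.

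Further receptors, JAK and STAT genes and their inhibitors numbered 14, of which 12 were tested and 0 passed an adjusted p below 0.05 by edgeR, DESeq2, limma-trend or limma-voom, against 4.45% of all tested genes by edgeR. At an unadjusted p below 0.05, which 18.5% of all tested genes passed, PIAS1, a SUMO ligase that inhibits STAT signalling, was higher and the kinase TYK2, which serves IFNAR1, was lower. TYK2 measured 66.5, 61.5 and 56.4 CPM in NC and 56.2, 54.3 and 52.2 CPM in ORF-Flag. The groups were separate by the narrow gap between NC 3 and ORF-Flag 1, with a log2 fold change of -0.18 (SE 0.05, edgeR adjusted p = 0.062). With 1 library left out, the edgeR adjusted p of TYK2 ranged from 0.0028, without NC 3, to 0.27. It was below 0.05 in 1 of 6 such fits. The receptor subunit for interferon gamma IFNGR1 was the most abundant of this list at 63.5 FPKM, with a log2 fold change of 0.07 (SE 0.03, edgeR adjusted p = 0.31).

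Of 33 further sensing genes, 20 were tested, 1 fell and 0 rose by edgeR, as by DESeq2, limma-trend and limma-voom, a share near the 4.45% of all tested genes called by edgeR. At an unadjusted p below 0.05, 5 were lower (25.0%, against 9.22% of all tested genes) and 0 higher (against 9.29%). The one that fell was NLRX1, a mitochondrial protein known to restrain MAVS. It measured 25.6, 25.0 and 23.5 CPM in NC and 21.6, 19.6 and 20.4 CPM in ORF-Flag. No libraries overlapped, and the log2 fold change was -0.26 (SE 0.07, 95% interval -0.40 to -0.12, edgeR adjusted p = 0.024). This call was lost without NC 2 (0.096), without ORF-Flag 2 (0.11) and without ORF-Flag 3 (0.11). The helicase DHX9 was the most abundant at 65.6 FPKM, with a log2 fold change of -0.04 (SE 0.03, edgeR adjusted p = 0.59). TLR7, TLR8, AIM2, RNF135 and IRF8 had 0 counts in every library, and the DNA sensor IFI16 had 0 to 2 counts.

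Of 47 further interferon-stimulated genes, 40 were tested, 1 rose and 2 fell (7.50%, against 4.45% of all tested genes). At an unadjusted p below 0.05, 6 of 40 were higher and 6 of 40 lower (against 9.29% and 9.22% of all tested genes). B2M, the light chain of MHC class I, measured 266.5, 260.2 and 278.0 CPM in NC and 292.8, 293.3 and 304.2 CPM in ORF-Flag. All ORF-Flag libraries were above all NC libraries, with a log2 fold change of 0.15 (SE 0.03, 95% interval 0.07 to 0.22, edgeR adjusted p = 0.015), lost without NC 2 (0.11) and without ORF-Flag 3 (0.12). APOBEC3C had overlapping groups and a log2 fold change of -0.23 (SE 0.08, edgeR adjusted p = 0.088), and was not called with all libraries. With 1 library left out it was called lower in 2 of 6 fits, without NC 3 and without ORF-Flag 3. Over the 6 fits its edgeR adjusted p ranged from 0.013 to 0.30. The peptide transporter TAP1, which loads MHC class I, had a log2 fold change of -0.11 (SE 0.05, edgeR adjusted p = 0.24). LGALS3BP, a secreted glycoprotein, was the most abundant of the list at 119.3 FPKM, with a log2 fold change of 0.00 (SE 0.04, edgeR adjusted p = 1.0).

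UBA7 measured 11.0, 13.6 and 9.92 CPM in NC and 8.08, 8.96 and 9.29 CPM in ORF-Flag. NC 2 stood high in its group, and the groups were separate by the gap between NC 3 and ORF-Flag 3. The adjusted p of UBA7 was 0.29 without NC 2 (log2 fold change -0.25), 0.17 without ORF-Flag 1, 0.076 without ORF-Flag 2 and 0.079 without ORF-Flag 3 by edgeR, and 0.070 by DESeq2 and 0.060 by limma-voom with all libraries. HELZ2, a helicase and nuclear coactivator, measured 11.3, 12.7 and 12.4 CPM in NC and 10.1, 9.65 and 9.70 CPM in ORF-Flag. The groups did not overlap, with a log2 fold change of -0.31 (SE 0.09, edgeR adjusted p = 0.043), but the call was kept in 1 of 6 fits with 1 library left out, that without NC 1. The edgeR adjusted p was 0.18 without NC 2, 0.065 without NC 3, 0.087 without ORF-Flag 1, 0.12 without ORF-Flag 2 and 0.16 without ORF-Flag 3, and it was 0.11 by DESeq2 and 0.050 by limma-trend.

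**Figure D5:**
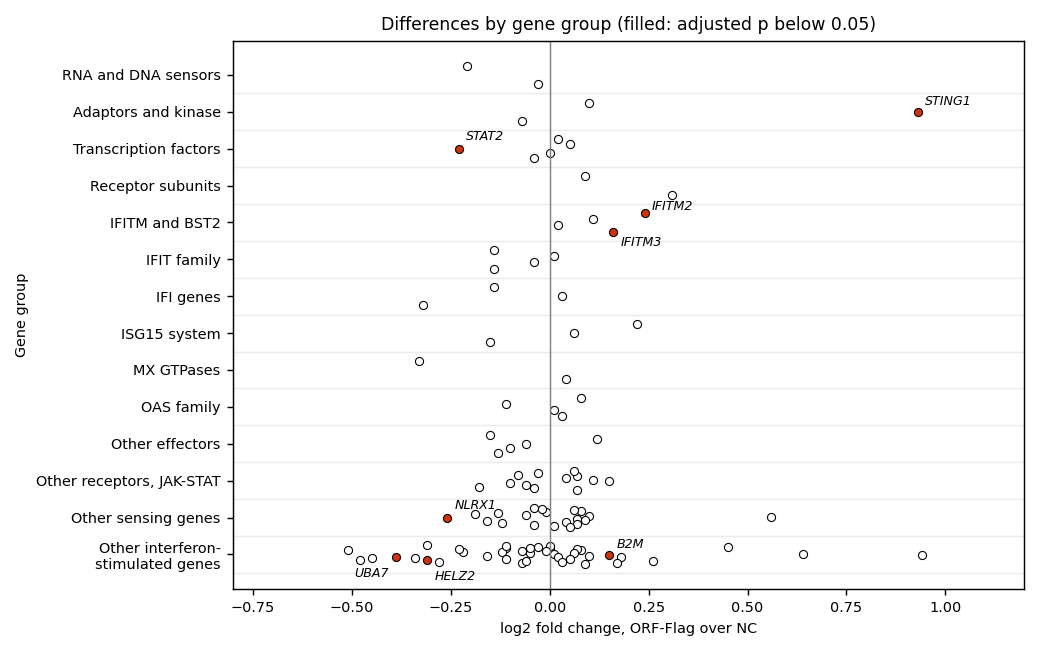
Log2 fold change of ORF-Flag over NC for each tested member by functional group and for the tested genes of the 3 further lists that had any, with filled points at an adjusted p below 0.05. Filled points to the right of 0 are STING1, IFITM2, IFITM3 and B2M, those to the left STAT2, NLRX1, UBA7 and HELZ2, and the open points, which reach 0.94 among the further interferon-stimulated genes, did not pass.

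Genes marking cell types were read as a check of the label HepG2. All 10 hepatocyte genes were tested, among them albumin (ALB) at 2142 FPKM, with 0 called by edgeR (against 4.45% of all tested genes), DESeq2, limma-trend or limma-voom and 3 at an unadjusted p below 0.05 (ALB and SERPINA1 higher, APOB lower, against 18.5% of all tested genes). Their sum was 25242, 25843 and 26268 CPM in NC and 26230, 25870 and 25883 CPM in ORF-Flag, with overlap. Leaving out NC 3 brought SERPINA1 past the threshold (log2 fold change 0.09 with all libraries, edgeR adjusted p = 0.040 without NC 3). Transthyretin (TTR) was low for a hepatocyte gene, at 2.51 FPKM. Of 10 leukocyte genes, 4 had 0 counts in every library (PTPRC, CD3E, MS4A1 and LILRB1). The leukocyte sum was 1298, 1439 and 1435 CPM in NC and 1528, 1630 and 1529 CPM in ORF-Flag, and came nearly all from lysozyme (LYZ). Without LYZ it was 43.6, 38.6 and 39.1 CPM in NC and 39.7, 38.9 and 41.7 CPM in ORF-Flag, where the groups overlap. The T-cell gene CD3D had 8, 10 and 8 counts in NC and 22, 6 and 27 in ORF-Flag, with overlapping groups and a log2 fold change of 1.13 (SE 0.41, edgeR adjusted p = 0.12).

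LYZ rose alongside IFITM2 and IFITM3, from 1255, 1401 and 1396 CPM in NC to 1488, 1591 and 1488 CPM in ORF-Flag. The groups did not overlap, and the log2 fold change was 0.17 (SE 0.04, edgeR adjusted p = 0.011, and 0.10 without ORF-Flag 2). Any part of leukocytes in the differences of the listed genes was not tested. Endothelial genes summed to 4.99, 4.32 and 5.54 CPM in NC and 6.78, 5.86 and 6.70 CPM in ORF-Flag, mostly PECAM1 (log2 fold change 0.39, SE 0.13; edgeR adjusted p = 0.096), with KDR at 0 counts in every library. Fibroblast genes summed to 0.692, 1.04 and 0.935 CPM in NC and 0.707, 0.632 and 0.889 CPM in ORF-Flag, mostly PDGFRB, with DCN at 0 counts in every library.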

How the data were processed

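RNA of 6 HepG2 libraries, 3 NC and 3 ORF-Flag by their labels, was extracted with TRIzol. The table deposited by the authors holds unscaled read counts for 20422 genes. The submitters' processing notes name cutadapt 1.11, HISAT2 2.1.0, featureCounts 1.6.0, edgeR and GRCh38. The annotation release, the strand setting and the treatment of shared or overlapping reads are not given in the sources used here, so counts of near-identical, overlapping or antisense genes are uncertain. The study's methods name limma for the tests, which was run as an alternative.

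Counts were used as deposited, and 4055 genes had 0 counts in every library. Symbols were matched by Ensembl identifier for 20421 genes. edgeR 4.0.16 in R 4.3.3 was run with filterByExpr (12386 genes kept), TMM scaling, glmQLFit and glmQLFTest, two-sided, without covariates, and Benjamini-Hochberg adjustment. The standard error was derived from the F statistic. The biological coefficient of variation was 0.0389. CPM were scaled by TMM, with factors between 0.995 and 1.007. FPKM used the union of exons in GENCODE 29, from which shared 31-base words and overlaps were also computed. Chi-square tests of libraries within a group gave statistics of 2.39 to 5.23 per degree of freedom, more spread than 1 library split in parts would show. The fits were tested on simulated data, with changes larger than those of IFITM2, IFITM3 and STAT2, where edgeR and limma made more false calls than the nominal share and DESeq2 fewer. Figures were drawn with matplotlib 3.10.9.

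Members and lists were chosen with earlier results of these data known. Genes named with full statistics were members at an adjusted, then an unadjusted, p below 0.05 and the highest FPKM of each functional group, and in the further lists those at an adjusted p below 0.05 and the highest FPKM. IFITM1, BST2, MX1, OAS3, IRF9, TYK2, PIAS1, UBE2L6, HERC5, TAP1, CD3D, APOBEC3C and other genes outside this rule were chosen after their values were seen. The alternatives were DESeq2 1.42.0, limma-trend and limma-voom (limma 3.58.1), no TMM, no filter, at least 10 counts in every library, a block for the replicate number, omission of each library, a fold above 1.2 with an unadjusted p below 0.05, and, added after seeing the data, the IFITM genes summed. Levels of the overexpressed frame itself were not analysed here.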

Additional observations from a re-analysis of the deposited data

How the results depend on the processing

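With DESeq2, no TMM, limma-trend, limma-voom, no filter, at least 10 counts in every library and the IFITM genes summed, between 431 and 824 genes passed, beside 551. STAT2, IFITM2 and IFITM3 passed in each of these where they stood alone, and STING1 in all but DESeq2, which gave it no adjusted p. With a fold above 1.2 and an unadjusted p below 0.05, 1 member was higher (STING1) and 0 lower, since IFITM2, IFITM3 and STAT2 changed by less. DESeq2 called 2 genes of the further lists, beside 4.

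Leaving out each library in turn gave 199 to 1058 genes past the threshold, 0 to 3 members higher, 0 to 1 lower and 0 to 5 genes of the further lists. The most, 1058, came without NC 3 and the fewest, 199, without ORF-Flag 3, where 0 members passed; the cause was not tested. The log2 fold changes of the called members kept their sign throughout, at 0.78 to 1.02 for STING1, 0.20 to 0.29 for IFITM2, 0.14 to 0.17 for IFITM3 and -0.26 to -0.18 for STAT2.

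The sign turned for uncalled genes, also some with few counts and estimates away from 0. With a library left out these were DHX58 (-0.66 to 0.07), IFNAR2 (-0.13 to 0.72), XAF1 (-0.49 to 0.16), TRIM22 (-0.38 to 0.08), IRF1 (-0.03 to 0.16), IRF9 (-0.06 to 0.07), OASL (-0.09 to 0.16), BST2 (-0.01 to 0.06), IFIT1 (-0.10 to 0.00), IRF3 (-0.04 to 0.03), IFIT5 (-0.04 to 0.08, and -0.01 by limma-voom), IFI6 (-0.04 to 0.12), OAS1 (-0.00 to 0.04) and LGALS3BP (-0.05 to 0.02, and -0.00 by DESeq2, without TMM and without the filter), beside other genes of the further lists.

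With the replicate number as a block, 731 genes passed, with the same 4 members (3 higher, 1 lower) and 5 genes of the further lists. Deviations of same-numbered libraries correlated at 0.067, 0.027 and 0.045, and those of differently numbered libraries at -0.078 to 0.030. ORF-Flag 2 correlated slightly more with NC 3 (0.030) than with NC 2. Whether the numbers mark pairs was not tested, and the block was kept as an alternative.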
